A study of Danio rerio with 24 samples.

Results

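Zebrafish embryos that received RfxCas13d mRNA together with guide RNAs aimed at rfp were compared with embryos that received the RfxCas13d mRNA without any guide, in 4 of the 24 libraries of the series. The 4 libraries were chosen by their labels: 2 carry the rfp guides and 2 do not, and the comparison takes in every endogenous gene besides the targeted transgene. The rfp guides were given at 500 to 600 pg per embryo with 200 to 250 pg of RfxCas13d mRNA, and RNA was taken 6 hours after injection. The embryos of 4 further groups, with 2 libraries each, were used beside them. These were embryos with RfxCas13d mRNA and guides against nanog at the same doses, embryos with RfxCas13d mRNA, guides against dnd and 40 pg of a gfp reporter mRNA that ends in the nanos 3′ untranslated region, embryos with RfxCas13d mRNA and that reporter, and embryos that were not injected. All 12 libraries hold the RFP transcript, which the embryos received from their mothers, so every control carries the target as well. Per the labels the fish are transgenic. The line, the clutches, the number of embryos pooled in a library and the use of a non-targeting guide RNA are not given in the sources used here, so the presence of a guide RNA as such and its sequence cannot be told apart in this comparison.

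RfxCas13d is a nuclease that is led by a guide RNA to a matching RNA and cuts it, while the genome stays as it is. Some Cas13 enzymes, once they have bound their target, can also cut other RNAs, an activity known from bacteria and from some cultured cells. At the stage sampled here, zebrafish embryos are entering gastrulation: RNAs laid down in the oocyte have largely been cleared, the embryo's own genes are active, and the dorsal-ventral and anterior-posterior axes are being patterned by BMP, Nodal, Wnt and Fgf signals. A guide set aimed at a transgene has no endogenous gene as its intended target. Guide sequences were not used here, so unintended matches to endogenous RNAs were not looked for.

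Levels are the authors' TPM values, which divide a gene's reads by its length and scale each library to the same total, so that a level is a share of the library and a rise of abundant RNAs lowers the rest. The depth of the libraries is unknown from such values. Between 14619 and 15757 genes reached 1 TPM in a library, and replicates correlated across genes with Pearson's r of 0.976 to 0.988 on the log2(TPM + 1) scale, where genes are not independent replicates. The 15253 genes with a mean of at least 1 TPM over the 12 libraries, the transgene included, were tested with limma, and a gene was called when its adjusted p was under 0.05 and its log2 fold change was at least 1 in size. The defining transcripts of the gastrula were present in all 4 libraries: tbxta of the mesoderm measured 346 and 227 TPM with rfp guides and 497 and 501 TPM with Cas13d mRNA alone, and krt4 of the outer epithelium measured 1681 and 1627 TPM with rfp guides and 1982 and 1941 TPM with Cas13d mRNA alone. Of 14 loci of differentiated muscle, nerve, blood, liver and lens, 13 were too low to be tested and did not exceed 1.16 TPM in any of the 12 libraries.

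The transgene was lower with its guides. RFP measured 366 and 205 TPM with rfp guides, against 1394 and 1491 TPM with Cas13d mRNA alone and 1253 and 1494 TPM in uninjected embryos. The highest rfp library lay far below the lowest library of any other group, which was 1117 TPM in a reporter library. The SD between replicates was 114 TPM with guides and 68.9 TPM with Cas13d mRNA alone (n = 2 each). The mean with guides, 286 TPM, was 19.8% of that with Cas13d mRNA alone and 20.8% of that in uninjected embryos, with a log2 fold change against uninjected embryos of -2.32 (SE 0.24, limma adjusted p 2.76e-04).

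**Figure D1:**
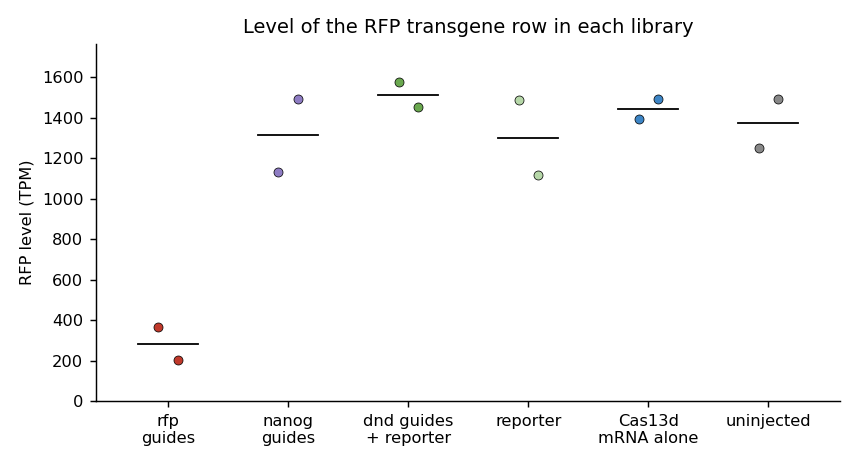
Level of the RFP transgene (TPM, linear axis from 0) in each of 12 libraries. Each point is 1 library and each bar the mean of the 2 libraries of a group. The rfp libraries, at 366 and 205 TPM, lie below all others, and the 4 libraries with nanog or dnd guides lie between 1132 and 1575 TPM.

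Many endogenous genes differed as well. Against Cas13d mRNA alone, 913 of 15253 genes (5.99%) were called, of which 329 were higher (2.16%) and 584 lower (3.83%, RFP among them). Against uninjected embryos, 431 genes (2.83%) were called, with 324 higher (2.12%) and 107 lower (0.702%). A total of 250 genes (1.64%) met the rule in both comparisons, 182 higher and 68 lower, and RFP was 1 of the 68. Both comparisons use the same rfp libraries, so they are not independent of each other. Between Cas13d mRNA alone and uninjected embryos, 1 gene was called with limma (0.00656%, higher with Cas13d mRNA), with 2044 genes at an unadjusted p under 0.05.

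The balance between higher and lower calls rested on the choice of control. Against Cas13d mRNA alone, it also rested on the filter, on single libraries and on whether Rfam loci and the most abundant genes were removed. With no filter on low values, 132 genes were higher and 89 lower than with Cas13d mRNA alone. Against the average of Cas13d mRNA alone and uninjected embryos, 299 were higher and 238 lower. Higher calls also prevailed without replicate 1 of the rfp guides or without replicate 2 of Cas13d mRNA alone. After the Rfam small RNA loci and genes over 10000 TPM were taken out and the libraries rescaled, 511 genes were higher and 467 lower than with Cas13d mRNA alone, and the median log2 fold change of all genes moved to 0.07 from -0.05 without that step. Median-of-ratios scaling gave 374 higher and 581 lower genes than with Cas13d mRNA alone, and quantile normalization 378 and 551, so lower calls still prevailed. Against uninjected embryos, median-of-ratios scaling gave 282 higher and 163 lower genes, and quantile normalization 261 and 174. The removal with rescaling gave 488 and 101 there, so higher calls prevailed under each of these. The 13 protein-coding genes of the mitochondrial genome made up 14.3% and 13.1% of the TPM with rfp guides, against 8.84% and 7.06% with Cas13d mRNA alone and 8.8% and 10.3% in uninjected embryos. The part of that shift in the calls was not tested beyond this rescaling.

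The count also rested on single libraries. Without replicate 2 of Cas13d mRNA alone, 45 genes were called, 32 higher and 13 lower, and 44 of them were among the 913. When replicate 2 of the rfp guides was left out, 142 genes were called. Against uninjected embryos, the count was 60 without uninjected replicate 1, 147 without uninjected replicate 2 and 68 without replicate 2 of the rfp guides. Each such fit leaves 1 library in an arm, and that library is assumed to vary like the others. Replicate 2 of the rfp guides had 6.73% of its TPM in 5 repeat loci, against 1.98% in replicate 1. Its share of Rfam loci was 1.37%, the highest of the 12 libraries, against 0.521% in replicate 1. The part of these shares in the calls was not tested beyond the rescaling above. The genes called lower than with Cas13d mRNA alone had median log2 differences from the uninjected mean of -0.59 and -0.62 in the rfp libraries. The medians of these genes were 0.43 and 0.93 with Cas13d mRNA alone, and 1.146 and 1.003 with the reporter. With dnd guides they were 1.046 and 0.682, and with nanog guides -0.162 and 0.609. Of those 583 endogenous genes, 570 also had a negative fold change against uninjected embryos, with a median of -0.60, and 67 were called there. Of the 329 higher genes, 322 had a positive fold change against uninjected embryos, with a median of 1.103, and 182 were called there.

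**Figure D2:**
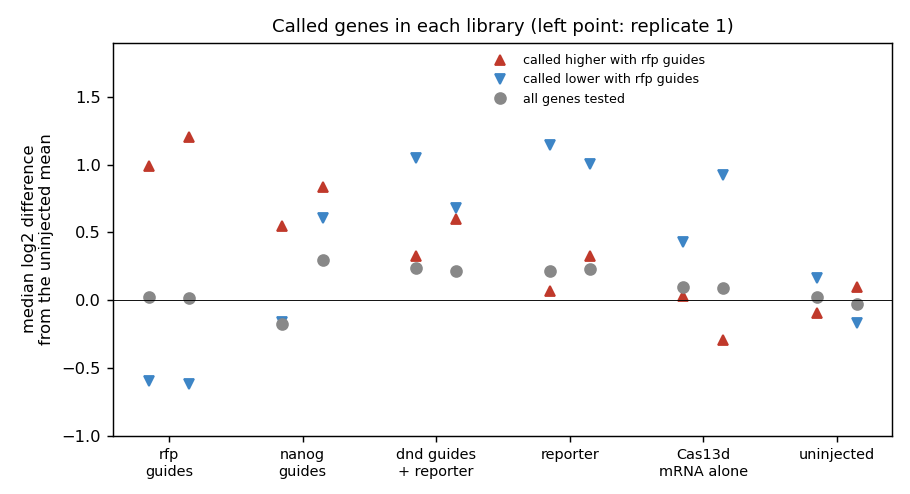
Median, over the genes called higher (329, red), called lower (583 endogenous genes, blue) and all genes tested (grey), of the log2(TPM + 1) difference from the mean of the uninjected libraries, in each of the 12 libraries. The genes were chosen on the contrast of the rfp libraries with the Cas13d libraries, so their separation there is given as a description. The lower genes stand at -0.59 and -0.62 in the rfp libraries and at 0.43 and 0.93 with Cas13d mRNA alone. They stand at 1.146 and 1.003 with the reporter, 1.046 and 0.682 with dnd guides, and -0.162 and 0.609 with nanog guides.

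**Figure D3:**
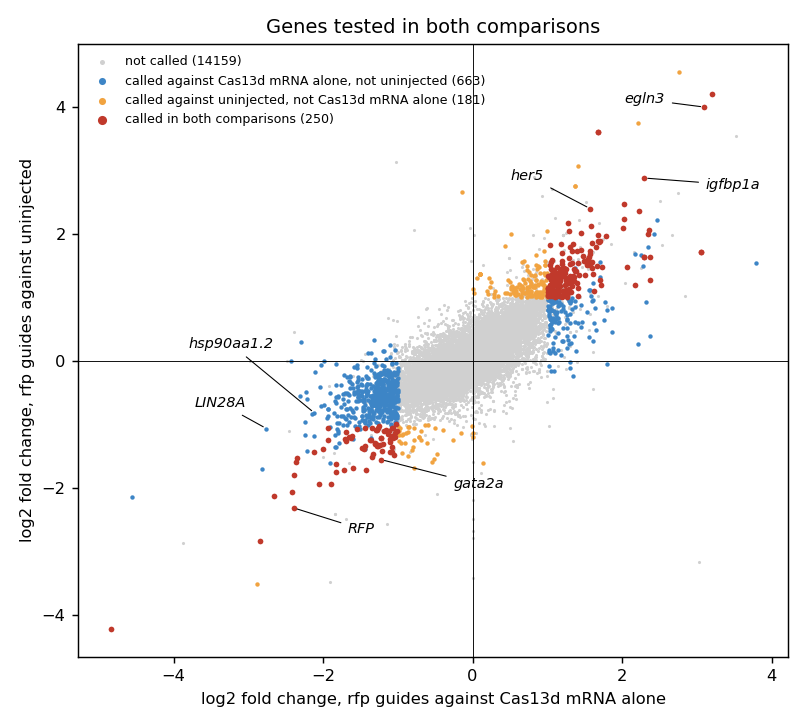
Log2 fold change of each tested gene with rfp guides against Cas13d mRNA alone (horizontal axis) and against uninjected embryos (vertical axis), both on the log2(TPM + 1) scale. Both axes share the rfp libraries. Red points are the 250 genes called in both comparisons, and 570 of the 583 endogenous genes called lower than with Cas13d mRNA alone lie below 0 on the vertical axis.

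A total of 38 genes were called against Cas13d mRNA alone in the fit of all libraries and also in each of the 4 fits without 1 library of that comparison. For uninjected embryos that number was 43. Together 22 genes met both conditions, 16 higher and 6 lower, and these 22 include egln3, igfbp1a, pfkfb3, p4ha1b, btg4, her5, stmn2a, cldnd, cldng, fhdc3 and pip4k2aa on the higher side, and RFP, agr1 and vac14 on the lower side. This condition was chosen after the counts had been seen.

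The largest rise among called genes with a gene symbol and a mean of at least 5 TPM was that of egln3, which encodes a prolyl hydroxylase that marks the alpha subunits of hypoxia-inducible factors for destruction and is itself a transcript induced by low oxygen. egln3 measured 61.9 and 51.4 TPM with rfp guides, against 5.51 and 5.89 TPM with Cas13d mRNA alone and 3.06 and 2.2 TPM in uninjected embryos. The other 6 libraries, with nanog guides, dnd guides or the reporter, held 0.97 to 2.11 TPM, so both rfp libraries lay far above all 10 others. The mean was 9.94-fold that with Cas13d mRNA alone (log2 fold change 3.10, SE 0.24, limma adjusted p 1.22e-04) and 21.5-fold that in uninjected embryos (log2 fold change 3.99). The log2 fold change against Cas13d mRNA alone stayed between 2.97 and 3.55 over 24 alternative settings, and the call held in all 24. Many of these settings leave the 4 libraries and their scale unchanged, so they cannot move the fold change. With 1 of the 4 libraries left out it was 2.97 to 3.23.

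igfbp1a, which encodes a binding protein that holds back insulin-like growth factors and is induced by hypoxia in zebrafish embryos, showed the same separation. It measured 11.02 and 11.27 TPM with rfp guides, against 1.42 and 1.52 TPM with Cas13d mRNA alone and 0.9 and 0.44 TPM in uninjected embryos (log2 fold change 2.30, SE 0.27, against Cas13d mRNA alone, limma adjusted p 1.23e-03). pfkfb3, whose product makes an activator of glycolysis, measured 24.3 and 23.8 TPM with rfp guides, against 6.32 and 7.06 TPM with Cas13d mRNA alone and 6.37 and 5.23 TPM in uninjected embryos (log2 fold change 1.70, SE 0.20, against Cas13d mRNA alone). The highest of the other libraries was at 11.5 TPM, in a group with dnd guides. p4ha1b, a subunit of the enzyme that hydroxylates proline in collagen, measured 37.2 and 39.6 TPM with rfp guides, against 14.5 and 16.1 TPM with Cas13d mRNA alone and 7.85 and 7.61 TPM in uninjected embryos (log2 fold change 1.27, SE 0.19, against Cas13d mRNA alone).

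A list of hypoxia response genes was put together after these values had been seen, so its count describes the data and supports nothing. Of its 30 tested loci, 9 were called, against 5.99% of all genes, with 7 higher and 2 lower than with Cas13d mRNA alone and had a median log2 fold change of 0.31 against -0.05 over all genes. The 3 other higher members belong to glycolysis. Aldolase aldocb measured 9.96 and 8.7 TPM with rfp guides and 3.96 and 3.26 TPM with Cas13d mRNA alone, lactate dehydrogenase ldha measured 13.1 and 12.7 TPM with rfp guides and 6.45 and 4.46 TPM with Cas13d mRNA alone, and phosphoglycerate kinase pgk1 measured 14.1 and 15.2 TPM with rfp guides and 7.03 and 5.91 TPM with Cas13d mRNA alone. In each of the 3 the groups did not overlap, and log2 fold changes were 1.17, 1.13 and 1.07. All 3 lost their calls without replicate 2 of the rfp guides, without replicate 2 of Cas13d mRNA alone and with no filter on low values, and ldha and aldocb also without replicate 1 of the rfp guides. The list had 4 higher and 0 lower genes in each of the fits that left out replicate 2 of the rfp guides or replicate 2 of Cas13d mRNA alone.

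Other members of the list went the other way or did not pass the test. The carbonic anhydrase ca9, a common marker of hypoxia in mammals, was lower at 34.5 and 23.8 TPM with rfp guides, against 50.4 and 83.4 TPM with Cas13d mRNA alone, and was at 42.4 and 31.4 TPM in uninjected embryos. hif1ab, which encodes a hypoxia-inducible factor, was lower at 33.5 and 35.7 TPM with rfp guides, against 71.6 and 84.1 TPM with Cas13d mRNA alone. vegfab, which encodes a vascular growth factor, measured 1.92 and 1.32 TPM with rfp guides and 2.03 and 1.67 TPM with Cas13d mRNA alone and was not called. ankrd37, another hypoxia-induced transcript, measured 38.4 and 29.2 TPM with rfp guides and 20.2 and 20.4 TPM with Cas13d mRNA alone, which did not pass (log2 fold change 0.69, limma adjusted p 0.101). Against uninjected embryos 8 members were called, all higher.

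**Figure D4:**
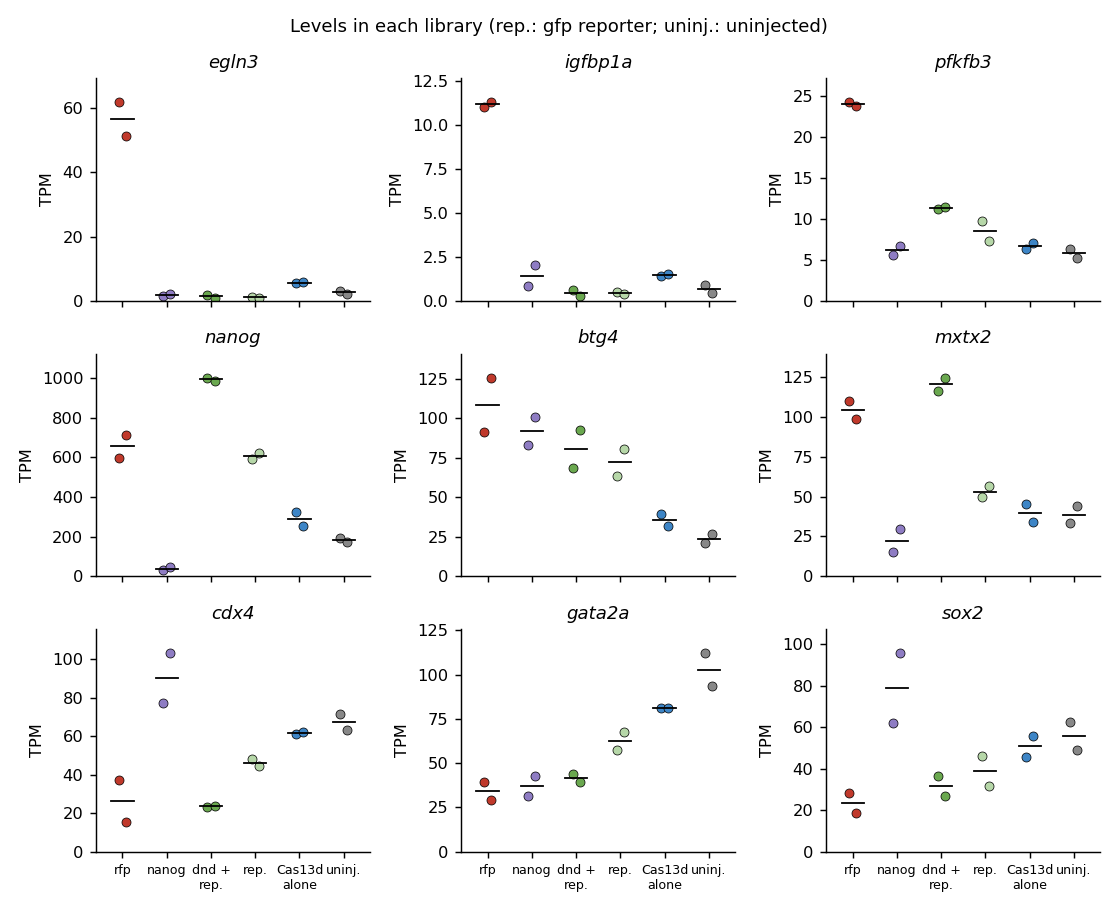
Levels (TPM, linear axes from 0) of 9 genes in each of the 12 libraries. Points are libraries and bars are means of the 2 libraries of a group. egln3, igfbp1a and pfkfb3 are high in the rfp libraries, nanog and mxtx2 are as high or higher in the libraries with dnd guides and the reporter, and cdx4, gata2a and sox2 are lower in the rfp libraries than with Cas13d mRNA alone or in uninjected embryos.

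Several RNAs of the oocyte were higher. Of 21 oocyte loci, all tested, 6 were higher and 0 lower than with Cas13d mRNA alone (28.6% called, against 5.99% of all genes). A positive fold change was seen in 19, and the median log2 fold change was 0.71. mos, the kinase that holds vertebrate eggs in meiotic arrest, measured 10.27 and 15.02 TPM with rfp guides and 3.93 and 2.56 TPM with Cas13d mRNA alone. gdf9, a growth factor secreted by oocytes, measured 8.08 and 12.6 TPM with rfp guides and 3.26 and 1.88 TPM with Cas13d mRNA alone. buc, which organises the Balbiani body and the germ plasm in zebrafish, measured 36.6 and 41.8 TPM with rfp guides and 14.4 and 9.51 TPM with Cas13d mRNA alone.

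For each of these 3 genes the libraries of the arms did not overlap, and log2 fold changes were 1.68 for mos, 1.66 for gdf9 and 1.66 for buc. btg4, which brings a deadenylase to maternal mRNAs during their clearance in mouse, measured 91.4 and 126 TPM with rfp guides, against 39.2 and 31.5 TPM with Cas13d mRNA alone and 21.3 and 26.5 TPM in uninjected embryos (log2 fold change 1.58, SE 0.22, against Cas13d mRNA alone). The remaining higher members were bmp15, another oocyte growth factor, at a log2 fold change of 1.22, and cpeb1b, a regulator of cytoplasmic polyadenylation, at 1.11. dazl, an RNA-binding protein of the germ line, had an adjusted p of 0.0129 with limma but a log2 fold change of 0.92, below the minimum.

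High btg4 was not limited to the rfp libraries. It measured 82.9 and 101 TPM with nanog guides, 68.5 and 92.3 TPM with dnd guides and the reporter, and 63.7 and 80.8 TPM with the reporter. Against nanog guides 0 of the 21 were called, and the median log2 fold change was 0.14. Without replicate 2 of Cas13d mRNA alone or without replicate 2 of the rfp guides, 1 of the 21 was called in either fit. Of 13 loci of the germ plasm, buc alone was called (7.69%, near the 5.99% of all genes), and the median was 0.10. Because whole embryos were sampled, fewer cells of a type and less RNA per cell cannot be told apart in any of these values.

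Among the maternal activators of the zygotic genome, nanog was higher and the other 4 tested genes were not called. nanog measured 598 and 715 TPM with rfp guides, against 324 and 253 TPM with Cas13d mRNA alone and 194 and 172 TPM in uninjected embryos (log2 fold change 1.19, SE 0.17, against Cas13d mRNA alone, limma adjusted p 4.01e-03). The libraries with dnd guides and the reporter were higher still, at 1003 and 988 TPM, and the reporter libraries stood at 592 and 623 TPM. pou5f3, which acts with nanog in genome activation, measured 1255 and 1205 TPM with rfp guides and 1570.4 and 1716 TPM with Cas13d mRNA alone and was not called.

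Further early genes were higher. mxtx2, a homeobox gene needed for the yolk syncytial layer, measured 110 and 98.6 TPM with rfp guides, against 45.2 and 33.9 TPM with Cas13d mRNA alone and 33.3 and 44.0 TPM in uninjected embryos (log2 fold change 1.39, SE 0.26, against Cas13d mRNA alone). her5, a hairy-related repressor, measured 79.6 and 105 TPM with rfp guides, against 34.6 and 26.2 TPM with Cas13d mRNA alone (log2 fold change 1.57, SE 0.19). eomesa, a maternal T-box factor, measured 24.03 and 23.55 TPM with rfp guides and 10.85 and 10.25 TPM with Cas13d mRNA alone (log2 fold change 1.102). her5 and eomesa were picked out after their values were seen. With 1 of the 4 libraries left out, the log2 fold change was 1.01 to 1.37 for nanog and 1.185 to 1.59 for mxtx2. For eomesa it was 1.065 to 1.14 and for her5 1.37 to 1.77. The calls of nanog, mxtx2 and eomesa did not hold in every such fit, while that of her5 did. The mxtx2 call was also lost with no filter on low values.

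For nanog, her5, mxtx2 and eomesa, the effect of rfp guides against Cas13d mRNA alone did not differ by the test from the effect of dnd guides against the reporter. The log2 differences between the effects were 0.48, 0.74, 0.22 and 0.09, with limma adjusted p of 0.493, 0.407, 0.833 and 0.92. With 2 libraries per group, not passing does not show that the 2 effects are alike. The dnd effects themselves did not pass the test, at log2 fold changes of 0.71, 0.83, 1.17 and 1.01. In all, 4 of 15253 genes were called between dnd guides and the reporter (0.0262%), 3 higher (0.0197%) and 1 lower (0.00656%, dnd1), with 474 at an unadjusted p under 0.05.

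Among genes of ventral and BMP-dependent fates, tfap2c, cdx4, gata2a and szl were lower. Of 18 tested genes, 4 were called, all lower (22.2%, against 5.99% of all genes). A negative fold change was seen in 16, and the median log2 fold change was -0.59 against -0.05 over all genes. tfap2c, a factor of the ventral ectoderm, measured 13.6 and 13.8 TPM with rfp guides, against 38.4 and 51.1 TPM with Cas13d mRNA alone and 42.5 and 26.0 TPM in uninjected embryos. cdx4, a caudal-related gene of the posterior body, measured 37.0 and 15.2 TPM with rfp guides, against 60.9 and 62.4 TPM with Cas13d mRNA alone and 71.4 and 63.3 TPM in uninjected embryos. gata2a, a factor of ventral ectoderm and blood, measured 39.7 and 29.4 TPM with rfp guides, against 81.0 and 81.2 TPM with Cas13d mRNA alone and 112 and 93.4 TPM in uninjected embryos.

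In each of the 3 genes both rfp libraries lay below all 4 control libraries. The fourth was szl, which encodes a secreted inhibitor of Tolloid proteases, at 29.9 and 14.3 TPM with rfp guides and 50.2 and 47.2 TPM with Cas13d mRNA alone. Log2 fold changes against Cas13d mRNA alone were -1.62 for tfap2c (SE 0.29), -1.34 for cdx4 (SE 0.29), -1.22 for gata2a (SE 0.20) and -1.19 for szl (SE 0.31), and all 4 were also called against uninjected embryos. The list had 0 calls without replicate 2 of Cas13d mRNA alone and 0 without replicate 2 of the rfp guides, with medians of -0.56 and -0.45. The ligands bmp2b and bmp4 were not called, with bmp2b at 76.7 and 69.2 TPM with rfp guides and 76.6 and 71.5 TPM with Cas13d mRNA alone.

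Genes outside the list that were picked out after their values were seen were lower too. Of these, smad1 and lmo2 did not keep their calls without replicate 2 of Cas13d mRNA alone. When single libraries of the comparison were left out, the log2 fold change was -1.285 to -1.17 for smad1 and -1.41 to -1.27 for lmo2. smad1, which carries the BMP signal into the nucleus, measured 2.34 and 2.62 TPM with rfp guides and 7.43 and 6.86 TPM with Cas13d mRNA alone (log2 fold change -1.23, SE 0.20). lmo2, a blood and vessel factor, measured 4.79 and 5.36 TPM with rfp guides, against 15.1 and 13.7 TPM with Cas13d mRNA alone and 20.26 and 13.02 TPM in uninjected embryos (log2 fold change -1.34, SE 0.23).

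Dorsal and mesodermal genes were mixed. Of 32 tested loci of mesoderm, endoderm and the organizer, 3 were called, all lower (9.38%, against 5.99% of all genes), and the median log2 fold change was -0.13. Leaving out replicate 2 of the rfp guides gave 0 calls and a median of 0.05, and leaving out replicate 2 of Cas13d mRNA alone gave 0 calls and a median of -0.19. They were msgn1, a factor of presomitic mesoderm, and her7 and her1, the cyclic repressors of the segmentation clock. msgn1 measured 10.3 and 8.31 TPM with rfp guides, against 28.9 and 31.3 TPM with Cas13d mRNA alone and 23.4 and 12.3 TPM in uninjected embryos, and her7 measured 45.0 and 23.0 TPM with rfp guides, against 76.1 and 86.9 TPM with Cas13d mRNA alone and 76.2 and 85.5 TPM in uninjected embryos. The organizer genes gsc and chrd were not called and were close between arms, with gsc at 116 and 94.9 TPM with rfp guides and 114 and 94.1 TPM with Cas13d mRNA alone. The log2 fold change of gsc was 0.02 and that of chrd 0.01, each with overlapping libraries.

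Of 14 anterior neural and ectodermal genes, 2 were lower (14.3%, against 5.99% of all genes) and 0 higher, with a median log2 fold change of -0.55. The list had 0 calls without replicate 2 of the rfp guides and 0 without replicate 2 of Cas13d mRNA alone, with medians of -0.43 and -0.48. sox2, a neural and pluripotency factor, measured 28.5 and 18.5 TPM with rfp guides, against 45.9 and 56.0 TPM with Cas13d mRNA alone and 62.7 and 49.2 TPM in uninjected embryos (log2 fold change -1.11, SE 0.27). six3b, a forebrain factor, was low throughout, at 0.87 and 0.56 TPM with rfp guides and 3.0 and 2.05 TPM with Cas13d mRNA alone. Its call held in 10 of 23 alternative settings and was lost in each of the 4 fits without 1 library of the comparison and with the replicate block. Among 22 genes of the enveloping layer and the yolk syncytial layer, 9.09% were called, against 5.99% of all genes. mxtx2 was higher, and agr1, a disulfide isomerase family member of secretory epithelia, was lower. agr1 measured 14.03 and 13.85 TPM with rfp guides, against 36.1 and 31.5 TPM with Cas13d mRNA alone and 38.9 and 38.9 TPM in uninjected embryos (log2 fold change -1.22, SE 0.18). Its call held in all 24 alternative settings, many of which cannot move the fold change. With 1 of the 4 libraries left out, its log2 fold change was -1.31 to -1.12. The keratin krt4 was not called (log2 fold change -0.25).

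**Figure D5:**
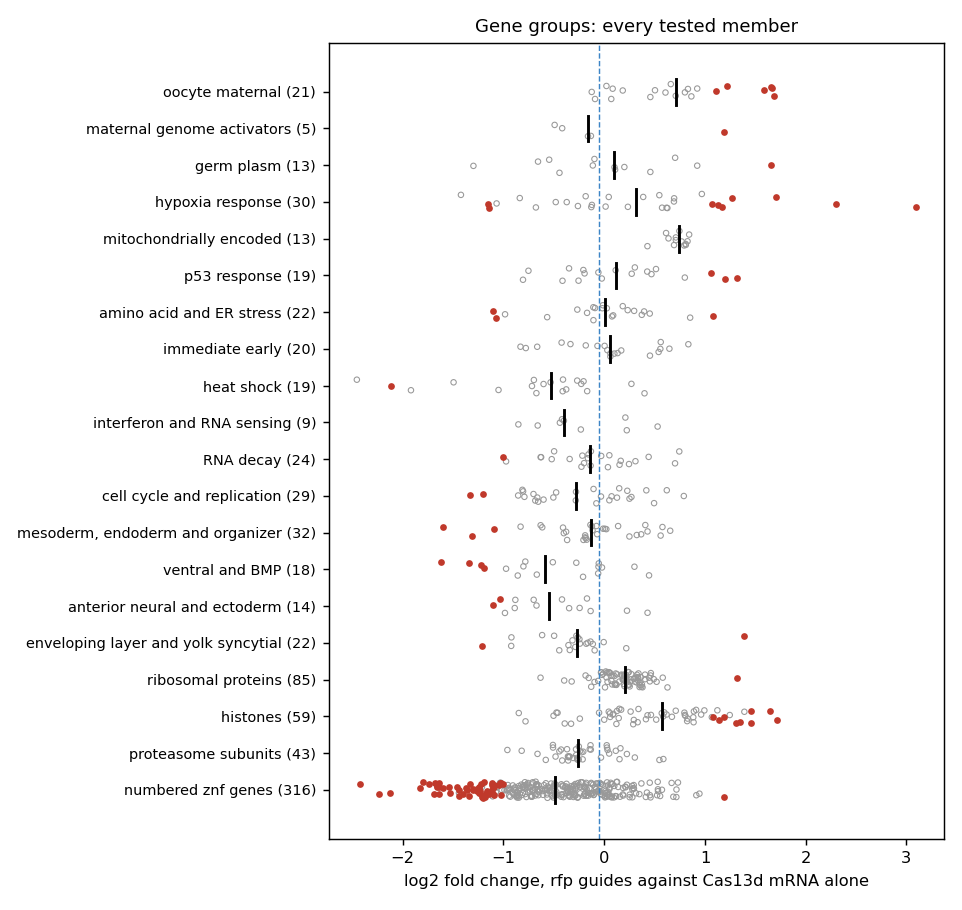
Log2 fold change with rfp guides against Cas13d mRNA alone for every tested member of 20 gene groups, with the number of tested loci in brackets. Filled red points were called, open grey points were not, black bars are group medians and the dashed blue line is the median of all genes, -0.05. Oocyte genes, mitochondrially encoded genes and histones have medians to the right of that line, and ventral, anterior neural, heat shock and numbered znf genes have medians to its left, with members on both sides in all of these groups but the mitochondrially encoded genes.

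The genes that fell most, among gene symbols with a mean of at least 5 TPM over the 4 libraries and no overlap between arms, were LIN28A, znf1027, znf1047, gfpt1, znf1044, hsp90aa1.2, vezf1a, fam118b, fam169ab and pard3ba. Of these, only znf1027 kept its call without replicate 2 of Cas13d mRNA alone, a fit that leaves 1 library in that arm. With 1 of the 4 libraries left out, log2 fold changes were -3.43 to -2.09 for LIN28A and -3.05 to -1.18 for hsp90aa1.2. The symbols znf1047 and pard3ba each have 2 tested loci, of which 1 was called. LIN28A, an RNA-binding protein that blocks maturation of let-7 microRNAs, measured 1.55 and 1.95 TPM with rfp guides, against 10.7 and 28.5 TPM with Cas13d mRNA alone and 6.57 and 3.36 TPM in uninjected embryos (log2 fold change -2.76, SE 0.45, against Cas13d mRNA alone). Replicate 2 of Cas13d mRNA alone was its highest library among those 6, and against uninjected embryos LIN28A was not called (limma adjusted p 0.191). gfpt1, the first enzyme of the hexosamine pathway, measured 2.58 and 5.33 TPM with rfp guides, against 13.9 and 31.6 TPM with Cas13d mRNA alone and 15.1 and 9.03 TPM in uninjected embryos. fam118b measured 7.77 and 6.8 TPM with rfp guides, against 28.3 and 36.1 TPM with Cas13d mRNA alone and 23.3 and 18.5 TPM in uninjected embryos, and fam118b and znf1027 were the members of these 10 that were also called against uninjected embryos.

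Numbered zinc finger genes, a large family of presumed DNA-binding proteins in zebrafish, made up a sizeable share of the lower genes. Of 316 tested loci, 57 were lower and 1 was higher (18.4% called, against 5.99% of all genes). The median log2 fold change was -0.49. Against uninjected embryos, 2 were lower and 6 higher (2.53% called, against 2.83% of all genes), and the median was -0.09. znf1047 (ENSDARG00000092938) measured 3.93 and 3.66 TPM with rfp guides, against 21.0 and 22.2 TPM with Cas13d mRNA alone and 15.2 and 6.26 TPM in uninjected embryos. Its log2 fold change against Cas13d mRNA alone was -2.24, while a second locus of that symbol was at -0.37 and was not called. In the fit that left out replicate 2 of Cas13d mRNA alone, 1 of the 316 was lower and 0 higher. Many members of this family are near-identical in sequence, so their separate values are uncertain.

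Among these 6 libraries, the lowest values of the chaperone genes hsp90aa1.2 and hsp70.3 were in the rfp libraries and the highest in replicate 2 of Cas13d mRNA alone. hsp90aa1.2, an inducible chaperone, measured 11.2 and 11.6 TPM with rfp guides, against 27.0 and 102 TPM with Cas13d mRNA alone and 27.22 and 15.98 TPM in uninjected embryos (log2 fold change -2.115, SE 0.51, against Cas13d mRNA alone, limma adjusted p 0.0214). hsp70.3 measured 4.97 and 3.14 TPM with rfp guides, against 8.81 and 74.7 TPM with Cas13d mRNA alone, and was not called. Of 19 tested genes 1 was called (5.26%, against 5.99% of all genes). The median log2 fold change was -0.53 against Cas13d mRNA alone and -0.10 against uninjected embryos. Without replicate 2 of Cas13d mRNA alone, 0 of the 19 were called and the median was -0.32.

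Of 19 tested p53 response genes, 3 were higher and 0 lower (15.8%, against 5.99% of all genes), and the median log2 fold change was 0.11. They were rps27l at 188 and 272 TPM with rfp guides and 124 and 65.4 TPM with Cas13d mRNA alone, sesn1 at 10.4 and 13.1 TPM with rfp guides and 5.37 and 3.77 TPM with Cas13d mRNA alone, and the cell death gene bbc3 at 4.61 and 6.86 TPM with rfp guides and 2.68 and 1.75 TPM with Cas13d mRNA alone. With dnd guides and the reporter, bbc3 measured 13.2 and 13.4 TPM, sesn1 14.3 and 17.1 TPM and rps27l 220.5 and 264 TPM. The p53 targets cdkn1a and mdm2 were not called, with cdkn1a at 7.27 and 8.83 TPM with rfp guides and 8.07 and 3.68 TPM with Cas13d mRNA alone. The fits without replicate 2 of Cas13d mRNA alone and without replicate 2 of the rfp guides gave 0 calls each, with medians of -0.06 and 0.10.

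Of 22 genes of the amino acid and endoplasmic reticulum stress responses, ppp1r15b, a regulator of the phosphatase that ends the stress block on translation, was higher, and shmt2 and slc7a3a, of serine metabolism and arginine uptake, were lower (13.6% called, against 5.99% of all genes). None of these 3 was called without replicate 2 of the rfp guides or without replicate 2 of Cas13d mRNA alone. Of 20 immediate early genes 0 were called, and 9 interferon and RNA sensing genes gave 0 calls as well. ier2b, an immediate early gene, measured 102 and 86.3 TPM with rfp guides and 56.3 and 48.4 TPM with Cas13d mRNA alone, with an adjusted p of 0.0197 with limma and a log2 fold change of 0.83, below the minimum. adar, an RNA-editing enzyme of the interferon response, measured 32.8 and 29.5 TPM with rfp guides and 50.9 and 63.6 TPM with Cas13d mRNA alone (log2 fold change -0.85, limma adjusted p 0.0324). Of the 21 interferon and RNA sensing loci in the table, 12 were too low to be tested.

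Of 29 genes of the cell cycle and DNA replication, 2 were lower (6.9% called, near the 5.99% of all genes). They were mcm6 and mcm3, subunits of the replicative helicase. Neither was called against uninjected embryos, without replicate 2 of the rfp guides or without replicate 2 of Cas13d mRNA alone. Among 24 loci of RNA decay, xrn1, the exonuclease that degrades decapped RNA, was lower at a mean of 13.2 ± 1.7 TPM with rfp guides and 27.5 ± 4.05 TPM with Cas13d mRNA alone (SD, n = 2 each; 4.17% called). Its log2 fold change of -1.002 sat at the minimum, and the call did not hold under median-of-ratios or quantile scaling. Of 43 proteasome loci 0 were called. Of 85 ribosomal protein loci 1, rps27l, was called, and the median log2 fold change was 0.20 against Cas13d mRNA alone and -0.20 against uninjected embryos.

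The 13 mitochondrially encoded genes had positive log2 fold changes throughout, from 0.43 to 0.84 against Cas13d mRNA alone and with a median of 0.48 against uninjected embryos. mt-co1, a subunit of cytochrome oxidase, measured 38959 and 36463 TPM with rfp guides, against 23789 and 18548 TPM with Cas13d mRNA alone and 26349 and 29644 TPM in uninjected embryos. Both rfp libraries were the highest of the 12 for mt-co1. None of the 13 reached the fold change minimum against Cas13d mRNA alone (0.0% called), although the adjusted p of mt-co1 was 0.00915 with limma. A further locus, whose symbol is that of the mitochondrial sequence, is not among the 13 and was called higher, at a log2 fold change of 1.035. With 1 of the 4 libraries left out it was at 0.93 to 1.14. The share of the 13 genes averaged 13.7% ± 0.849 with rfp guides, 7.95% ± 1.26 with Cas13d mRNA alone and 9.55% ± 1.06 in uninjected embryos (SD, n = 2 each).

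Histone genes and small RNA loci stood out among the higher calls against Cas13d mRNA alone. Of 59 histone loci, 9 were higher and 0 lower (15.3% called, against 5.99% of all genes), with a median log2 fold change of 0.57. Against uninjected embryos 1 of the 59 was called (1.69%, against 2.83% of all genes) and the median was 0.18. Without replicate 2 of the rfp guides, the median against Cas13d mRNA alone was 0.177. Some histone symbols cover many loci, with 24 tested for hist1h4l, and the libraries were enriched for poly(A) RNA. Values of single histone loci are therefore uncertain. The most abundant of the 9 was h2af1al, a histone H2A gene, at 379.6 and 433 TPM with rfp guides and 216 and 145 TPM with Cas13d mRNA alone. In all 9 replicate 2 of the rfp guides was the higher one, as in hist1h2ba at 8.6 and 23.98 TPM with rfp guides and 3.91 and 3.99 TPM with Cas13d mRNA alone. Leaving out replicate 2 of the rfp guides left 1 of the 59 called, and leaving out replicate 2 of Cas13d mRNA alone left 0.

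Of 282 tested Rfam small RNA loci, 39 were higher and 6 lower, and the median log2 fold change was 0.70. Against uninjected embryos 24 were higher and 5 lower. With replicate 2 of the rfp guides left out, 10 were higher and the median fell to 0.17. The loci with symbol RF00003, the U1 spliceosomal RNA, gave 18 higher loci and 1 lower locus among 75 tested, and RF00004, the U2 spliceosomal RNA, gave 3 higher loci among 8. The most abundant U2 locus measured 997 and 1642 TPM with rfp guides, against 662 and 548 TPM with Cas13d mRNA alone and 397 and 563 TPM in uninjected embryos. All 3 loci of the nuclear RNase P RNA, RF00009, were higher. Of all genes tested, 2.16% were higher and 3.83% lower than with Cas13d mRNA alone by the same rule. The loci of a family are near-identical and the libraries were enriched for poly(A) RNA, so values of single loci are uncertain.

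A pair of U1 loci showed how such copies can be divided. ENSDARG00000110665 read 0 TPM in the rfp and the uninjected libraries, and had the same value as ENSDARG00000115069 in each of the other 8 libraries. The first was called lower and the second higher than with Cas13d mRNA alone. Their summed level was 24.7 and 21.7 TPM with rfp guides, against 7.22 and 10.5 TPM with Cas13d mRNA alone and 9.1 and 10.04 TPM in uninjected embryos.

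The remaining genes with the largest rises, among gene symbols with at least 5 TPM on average, were dop1a, evla and stmn2a and 1 locus of the histone gene hist1h4l. Of the 24 tested loci of hist1h4l, 3 were called. stmn2a, a tubulin-binding protein best known from neurons, measured 52.4 and 54.4 TPM with rfp guides, against 16.9 and 15.2 TPM with Cas13d mRNA alone and 14.3 and 13.2 TPM in uninjected embryos (log2 fold change 1.67, SE 0.19, against Cas13d mRNA alone). evla, an actin regulator, measured 45.0 and 62.4 TPM with rfp guides and 19.4 and 12.3 TPM with Cas13d mRNA alone. dop1a measured 11.9 and 13.2 TPM with rfp guides and 2.99 and 2.47 TPM with Cas13d mRNA alone, but was at 4.02 and 10.6 TPM in uninjected embryos and was not called against them. The claudin cldnd, a tight junction protein and the most abundant higher gene after nanog and h2af1al among gene symbols, measured 331 and 387 TPM with rfp guides, against 140 and 117 TPM with Cas13d mRNA alone and 106 and 121 TPM in uninjected embryos (log2 fold change 1.48, SE 0.17, against Cas13d mRNA alone).

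Over symbols of every class, among called genes with at least 5 TPM on average and no overlap between arms, the largest rises were of RF00288, CR847870.2 and egln3. CR847870.2 measured 10.3 and 28.9 TPM with rfp guides, against 3.01 and 0 TPM with Cas13d mRNA alone, and was listed at 0 in the other 8 libraries. Under the same conditions the largest decreases were of RF00271, with 0 TPM in the rfp libraries and 20.5 and 37.2 TPM with Cas13d mRNA alone, si:dkeyp-13d11.1 and BX469901.1. si:dkeyp-13d11.1 measured 0.04 and 0 TPM with rfp guides and 18.2 and 29.1 TPM with Cas13d mRNA alone, but its uninjected libraries were at 14.5 and 0.3 TPM. By class of symbol, 591 of 11571 genes with a gene symbol were called (5.11%), against 153 of 2023 with a provisional symbol (7.56%), 123 of 1376 named after a clone (8.94%) and 45 of 282 Rfam loci.

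The 5 most abundant lower endogenous genes were ncl, hnrnpa1a, ptp4a1, cbx1a and srsf3a, and all 5 lost their calls without replicate 2 of Cas13d mRNA alone. ncl, the major protein of the nucleolus, measured 857 and 809 TPM with rfp guides, against 1499.9 and 2286 TPM with Cas13d mRNA alone and 1395 and 1061 TPM in uninjected embryos (log2 fold change -1.15, SE 0.26, against Cas13d mRNA alone). hnrnpa1a, an RNA-binding protein of splicing, measured 375 and 339 TPM with rfp guides and 717 and 1063 TPM with Cas13d mRNA alone, and the heterochromatin protein gene cbx1a measured 270.1 and 262 TPM with rfp guides and 489 and 667 TPM with Cas13d mRNA alone. The splicing factor srsf3a (ENSDARG00000100815) measured 172 and 135 TPM with rfp guides, against 346 and 389.6 TPM with Cas13d mRNA alone and 329.7 and 308 TPM in uninjected embryos. Of these 5 genes srsf3a was the one called against uninjected embryos (log2 fold change -1.06, limma adjusted p 0.0247).

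The effect of the rfp guides was then set against the effect of another guide set, as the difference between rfp guides against Cas13d mRNA alone and dnd guides against the reporter. The 2 effects share no library. With limma, 7 of 15253 genes differed (0.0459%), 3 with a higher value (0.0197%) and 4 with a lower one (0.0262%), and 1640 stood at an unadjusted p under 0.05. RFP and dnd1, the targets of the 2 guide sets, were among them, with log2 differences of -2.62 and 2.59. egln3 was the other gene symbol, with a log2 difference of 2.95 (SE 0.34, limma adjusted p 3.33e-03, and 2.35e-03 to 0.0493 over 23 alternative settings). The dnd libraries held 1.7 and 1.02 TPM of egln3 and the reporter libraries 1.26 and 0.97 TPM.

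igfbp1a differed by 2.29 on the log2 scale and did not pass (limma adjusted p 0.0617), and the differences of pfkfb3 and p4ha1b, 1.33 and 1.24, did not pass either (limma adjusted p 0.204 for both). The other 4 of the 7 were ENSDARG00000097573, which has a clone-based symbol, and 3 Rfam loci. All 329 genes called higher against Cas13d mRNA alone had a positive difference, with a median of 0.96, and all 583 lower endogenous genes a negative one, with a median of -1.05. These sets were chosen on the libraries that enter the difference, so their signs are a description. The comparison of dnd guides with the reporter holds none of those libraries. There, 284 of the 329 were positive (86.3%, against 48.9% of all genes), with a median log2 fold change of 0.28. Of the 583, 504 were negative (86.4%, against 51.0% of all genes), with a median of -0.21. Genes are not independent replicates, so with 2 libraries per group these shares are a description. There, 1 of the 329 and 0 of the 583 were called. Against the uninjected mean, the higher genes had medians of 0.326 and 0.597 with dnd guides and 0.067 and 0.325 with the reporter. The lower genes had medians of 1.046 and 0.682 with dnd guides and 1.146 and 1.003 with the reporter, so these groups overlapped.

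Against embryos with nanog guides, where RFP stood at 1132 and 1493 TPM, 585 genes were called with rfp guides (3.84%), 271 higher (1.78%) and 314 lower (2.06%). Replicate 1 of the nanog guides had 23.2% of its TPM in 5 repeat loci, against at most 6.73% in any other library, and without it 244 genes were higher and 1084 lower. Without replicate 2 of the nanog guides the balance was the other way, with 411 genes higher and 140 lower. After removal of Rfam loci and genes over 10000 TPM, 257 were higher and 521 lower. The library with 6.73% was replicate 2 of the rfp guides, which is itself part of this comparison. egln3, igfbp1a, pfkfb3, p4ha1b and aldocb were higher in this comparison too, with log2 fold changes of 4.41, 2.37, 1.81, 1.46 and 1.19. nanog, the target of those guides, measured 598 and 715 TPM with rfp guides, against 33.6 and 44.5 TPM with nanog guides. Among the lower genes with rfp guides, cdx4, sox2, lmo2, smad1 and agr1 were also called lower against nanog guides, while tfap2c and gata2a were not, and szl was higher.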

How the data were processed

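Total RNA from whole zebrafish embryos was made into poly(A)-enriched stranded libraries and read as single 75 bp reads, per the labels' protocols. The authors deposited a table of TPM values (RSEM) for 24 libraries, and bcl2fastq 2.18, STAR 2.6.1c, RSEM and the build danRer11 are named per the submitters' processing notes. The annotation and the use of strand in counting are not given in the sources used here, so overlapping, antisense and near-identical genes are uncertain. TPM values keep no depth, so no counting interval or detection floor is given. All columns were matched to samples by title, and each group has 2 biological replicates per the series' design text. Replicates shared at most 0.583% identical TPM values.

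The 12 libraries of the first set were fitted together with limma 3.58.1 (R 4.3.3) on log2(TPM + 1), with 1 term per group, moderated variances with an intensity trend and 6 residual degrees of freedom. A fold change on this scale understates the change of low genes. Genes with a mean of at least 1 TPM over the 12 libraries were tested, two-sided, with Benjamini-Hochberg adjustment over 15253 genes. A call needs an adjusted p under 0.05 and a log2 fold change of at least 1 in size. Each adjusted p in the text is from this model, unless an alternative setting is named. The fit was also run on simulated data, with noise drawn separately for each gene and library. Deviations that the genes of a library share were not simulated, so false calls that come from them were not examined. The 6 comparisons were rfp guides against Cas13d mRNA alone, uninjected and nanog guides, Cas13d mRNA alone against uninjected, dnd guides against the reporter, and the rfp effect minus the dnd effect.

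Named genes were RFP, the 10 largest changes in each direction among gene symbols with a mean of at least 5 TPM over the 4 libraries and no overlap, the 3 largest over all symbols, the 5 most abundant called genes in each direction, called members of the gene lists with further examples, and genes stated as picked out afterwards. A most abundant locus whose symbol is a sequence accession is not named. The lists come from general knowledge. The comparison, members and lists were chosen with earlier results of these data known, and the hypoxia list after its values were seen. The table of gene names held 29201 of 32520 identifiers. Alternatives were a pseudocount of 0.1, no filter on low values, a mean of at least 5 TPM, median-of-ratios scaling, quantile normalization, removal of Rfam loci and genes over 10000 TPM, only the groups compared, all 24 libraries, no variance trend, a replicate block, no fold change minimum, each replicate left out, and, added after seeing the data, the averaged controls and the dnd and reporter replicates left out. Settings that change only the variance estimate, the filter or libraries outside a comparison leave its fold changes as they are. The setting with no fold change minimum cannot lose a call. Guide and gene sequences were not used here.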

Additional observations from a re-analysis of the deposited data

Results flagged for a closer look

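For 6 endogenous genes, the log2 effect of rfp guides (against Cas13d mRNA alone) and that of dnd guides (against the reporter) differed when the difference itself was tested with limma. For dnd1, which the dnd guides target, the rfp effect minus the dnd effect was 2.59, and dnd1 measured 12.3 and 12.6 TPM with rfp guides, 1.35 and 1.27 TPM with dnd guides, 10.2 and 12.1 TPM with the reporter and 11.2 and 10.3 TPM with Cas13d mRNA alone. For egln3 the difference was 2.95, and for both egln3 and dnd1 the call held in 23 of 23 alternative settings.

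For ENSDARG00000097573, with a clone-based symbol, the difference was 3.28, with 2.87 and 4.03 TPM in the rfp libraries and 0 and 0.11 TPM with Cas13d mRNA alone, and the call held in 8 of 22 settings. For 3 small RNA loci the difference was negative: RF00003 (ENSDARG00000110665) at -3.28, RF00568 (ENSDARG00000103384) at -3.03 and RF00002 (ENSDARG00000115847) at -3.69. RF00002 and RF00568 were listed at 0 in all rfp and Cas13d libraries. Their differences come from 10.4 and 13.6 TPM and from 9.7 and 12.4 TPM in the dnd libraries, and the size depends on the pseudocount. Both calls were lost with a pseudocount of 0.1. The RF00002 call held in 19 of 21 settings and the RF00568 call in 15 of 21. The RF00003 locus, whose call held in 21 of 22, is 1 of the U1 pair described above, where copies were divided unevenly.

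RFP was also read in libraries that enter no comparison here. In the second set, the pair that received Cas13d as protein, dnd1 guides and the reporter had 18.5 and 27.1 TPM, averaging 22.8 TPM. The 10 other libraries of that set reached at most 0.18 TPM, and 8 were at 0.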

How the results depend on the processing

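RFP kept its direction and its call under every alternative run, with a log2 fold change of -2.81 to -1.97 when single libraries were left out. Counts of calls against Cas13d mRNA alone (913) were 221 with no filter on low values, 2098 with no fold change minimum and 537 against the averaged controls, of which 457 were among the 913, and ranged from 45 to 1256 with single libraries left out. Against uninjected embryos (431) they were 181 with no filter and 747 with no fold change minimum, and 60 to 481 with single libraries left out. Against nanog guides (585) they were 384 to 1328 with single libraries left out. The difference of effects (7) gave 28 genes under median-of-ratios scaling, 13 under quantile normalization, 12 in a fit of all 24 libraries, and 5 to 27 with single libraries left out. Removing the fold change minimum admits more genes by definition. The causes of the other shifts were not tested.

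With the replicate number as a block, 889 genes were called against Cas13d mRNA alone, 871 of them among the 913. The labels do not say what a number shares. The deviations of same-numbered rfp and Cas13d libraries correlated at 0.015. With only 2 pairs this cannot tell whether such libraries share more than a number.

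Values with the opposite sign or of 0 arose for genes that were not called. cdkn1a was at -0.009 without replicate 2 and 0.946 without replicate 1 of Cas13d mRNA alone, and isg15 at -0.304 and 0.724 in the same fits. vegfab was at 0.038 without replicate 2 and -0.294 without replicate 1 of the rfp guides. mt-co1 and mt-co2 were at 0.0 under quantile normalization, which gives a gene the same value in all libraries where it holds the same rank. TPM values hold no depth, so how far low genes are limited by counting is unknown.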
